A study of Gallus gallus with 6 samples.

Results

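The Control cells were sorted cells of the chick (Gallus gallus) head ectoderm, and their transcriptome is described on its own, gene by gene, as a baseline. They were chosen by label: the 3 samples titled as Control were used, out of 6 samples in the series. Embryos were electroporated in the cranial ectoderm at head fold stages with pCES-mCherry and pCES-EGFP, 2 plasmids from which a constitutive promoter makes a red and a green fluorescent protein, and were cultured for 16 to 24 hours at 38 °C. Heads without trunk and without their own otic placodes were pooled, and cells positive for both colours were sorted, so that carrying plasmid, and not the activity of any enhancer, chose the cells. The other 3 samples (Sox8OE, which carried pCES-Sox8-mCherry and the reporter pTK-Lmx1aE1-EGFP) were not used here. The study gives a somite stage, later than head fold, for the collection of the Sox8OE cells. It names no separate stage for the Control cells compared with them. The levels below are those after culture and not those of head fold ectoderm.

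At head fold stages the ectoderm around the anterior neural plate is divided into neural plate, neural plate border and surface ectoderm. The border gives rise to neural crest cells and to the preplacodal region, from which the olfactory, lens, adenohypophyseal, trigeminal, otic and epibranchial placodes arise. Positional identity along the head is carried by transcription factors, with SIX3 and HESX1 at the anterior end, OTX2 over forebrain and midbrain, EN1 and PAX2 near the midbrain-hindbrain boundary, and HOX genes from the hindbrain backwards. FGF, WNT, BMP and retinoic acid signals set these domains. The study uses SOX8, LMX1A and SOHO-1 as otic markers. Their levels in these head cells are given below, and which cells expressed them was not examined here.

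Levels are given as CPM, the read count of a gene divided by the total read count of its sample and multiplied by 1000000. The samples held 35377763, 46586658 and 38343404 counts in Control replicates 1, 2 and 3, so that 1 CPM stood for 35.4, 46.6 and 38.3 reads. The table had 24356 genes, of which 17187, 17592 and 18145 had at least 1 count. In all 3 samples 10958 genes (45.0%) reached 1 CPM, and among the 13855 genes with a name the share was 66.7%, which is the background for the counts below. Of the named genes, 6719 averaged 10 CPM or more and 2002 averaged 100 CPM or more. A gene with at most 3 counts in every sample was taken as not detected, and 6549 genes were. Ranks run over all 24356 genes by mean CPM, and they order reads, which also grow with the length of a transcript, so a rank does not say that one gene had more transcripts than another. No transcript lengths were used here. In a bulk sample, fewer cells of a type and less RNA per cell cannot be told apart.

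The samples were first compared with each other, since replicate 2 stood apart. Over the 7429 genes with a mean of at least 10 CPM, the median difference was 1.11-fold between replicates 1 and 3, against 1.27-fold between replicates 1 and 2 and 1.24-fold between replicates 2 and 3. Of these genes 0.781% differed by 2-fold or more between replicates 1 and 3, 6.50% between replicates 1 and 2, and 3.04% between replicates 2 and 3. A chi-square comparison of counts gave 26.9 per gene for replicates 1 and 3, above the value near 1 that counting noise gives, so all 3 were treated as separate libraries. The labels name no batch. Ribosomal protein genes took 5.32%, 7.32% and 5.39% of the counts, and 69 of the 70 that passed 1 CPM were highest in replicate 2. Mitochondrial genes took 6.80%, 6.09% and 5.55%, without the same order. The part of these differences in the levels below was not tested, and values are given for each sample.

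Housekeeping genes led the table. The 15 genes with the most reads included MT-CO1, COX3 and COII (mitochondrial cytochrome oxidase subunits), GAPDH, ENO1 and LDHB (glycolysis), HSP90AA1 and HSPA8 (chaperones), ACTB, RPL8, H3F3B, STMN1, NPM1 and ZCCHC13. MT-CO1 had 33156, 26389 and 26351 CPM, and the 20 leading genes together took 13.8%, 13.3% and 12.6% of the counts. Only 107 genes averaged 1000 CPM or more and 1999 lay between 100 and 1000 CPM, against 5323 between 10 and 100 CPM. The spread widened downwards, with a median coefficient of variation (CV, the SD over the mean of the 3 samples) of 12.3% between 100 and 1000 CPM, 17.2% between 10 and 100 CPM and 33.4% between 1 and 10 CPM. Over all genes that passed 1 CPM it was 18.8%, where counting error alone gave a median of 3.30%.

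Surface ectoderm genes were present, trunk factors were at or near the floor, and the neural regions of the head lay between. The share above 1 CPM in the head neural region lists ran from 14.3% (hindbrain) to 80.0% (midbrain and boundary). Only the midbrain and boundary list exceeded the 66.7% of all named genes. These lists hold transcription factors only, and in the transcription factor families counted below 46.0% of genes passed. Of the 24 trunk and tail bud transcription factors with a row, none passed 1 CPM in all 3 samples and 20 were not detected, among them every HOX gene of the list, CDX2 and CDX4. TBXT, the Brachyury factor of notochord and tail bud, had 1.24, 0.365 and 0.991 CPM, over 1 CPM in replicate 1 only. By contrast, 18 of 18 surface ectoderm genes with a row passed 1 CPM. That list also holds keratin, adhesion and splicing genes, so the lists differ in kind of gene as well as in region. Of the blood and vessel markers 2 of 8 and 3 of 12 passed, both below the 66.7% of all named genes (5 of 12 vessel genes without replicate 2). PECAM1, an adhesion protein of endothelium and blood cells, had 15.8, 10.9 and 24.9 CPM, and EGFL7, a protein secreted by endothelium, had 16.6, 11.9 and 11.3 CPM, and these were the 2 vessel genes averaging over 10 CPM. KDR, a receptor that defines endothelial precursors, had 0.170, 0.236 and 4.17 CPM. CDH5, the endothelial cadherin, had 0.735, 0.429 and 2.61 CPM. KDR and CDH5 were highest in replicate 3, as were 8 of the 12 endothelial genes, against 7378 of 19988 genes with a count. Of the 3 that passed 1 CPM in all samples, 1 was highest in each replicate. The summed level of the 12 was 40.5, 30.4 and 53.7 CPM. Of the globin genes, HBZ had 1.55, 3.80 and 3.57 CPM, HBA1 had 0.254, 0.150 and 0.235 CPM, HBM had 1, 11 and 0 counts, and HBE1 and HBBA had none. ALAS2, the first enzyme of haem synthesis in red cells, had 71.4, 97.5 and 69.7 CPM.

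Forebrain factors were expressed in part. Of 15 transcription factors of the anterior forebrain, 5 passed 1 CPM in all samples (33.3%). The share was 66.7% of all named genes and 46.0% of transcription factor family members. Of the 15, 3 averaged over 10 CPM and 2 were not detected. SIX3, a repressor that marks the most anterior neural plate, had 23.4, 75.5 and 31.5 CPM. It was the least even of the leading forebrain genes, with replicate 2 at 3.23 times replicate 1. HESX1, a homeobox factor of the anterior neural plate and pituitary rudiment, had 32.7, 31.7 and 42.7 CPM, which is a CV of 17.0% and no shift in replicate 2. LH-2A, the row for the LIM factor LHX2, had 23.0, 20.2 and 14.6 CPM. FEZF2 and SP8 followed at 2.54, 3.39 and 3.08 CPM and at 1.67, 2.45 and 2.82 CPM. The genes of the later telencephalon were low or absent: EMX2 had 0.113, 0.816 and 0.287 CPM, and TBR1 and DLX2 stayed at or under 0.141 CPM in every sample.

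In the eye field list PAX6 stood alone. This paired-box factor of eye, lens and forebrain had 129, 225 and 184 CPM and ranked 1163, the best rank in the regional lists of neural transcription factors. RAX, the retinal homeobox gene, had 1.81, 5.97 and 2.95 CPM. SIX6 had 0.933, 2.49 and 0.782 CPM. Both were highest in replicate 2. Of the 9 members with a row, 3 passed 1 CPM in all samples (33.3%). The share was 66.7% of all named genes and 46.0% of transcription factor family members. All 9 were detected.

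Ventral and diencephalic genes overlapped in spread. In each of the 2 lists, 4 members passed 1 CPM in all samples. Over these members, the median CV was 10.2% in the ventral and 25.4% in the diencephalon list, against 18.8% for all genes. Their CVs ran from 1.27% to 48.5% in the ventral and from 5.09% to 40.3% in the diencephalon list. With so few genes, the medians do not separate the lists. NKX2-1, which specifies the hypothalamus, had 35.2, 35.1 and 35.9 CPM, a CV of 1.27%, below its counting error of 2.65%. NKX6-2, a homeobox factor of ventral neural tube, had 45.1, 99.0 and 46.2 CPM. It was 2.19 times higher in replicate 2 than in replicate 1, while NKX2-1 was level across the samples. DBX1, expressed by progenitors at intermediate levels of the neural tube, had 24.6, 31.1 and 26.4 CPM. Of the 16 genes of the ventral list 4 passed 1 CPM, and 4 were not detected (LHX6, OTP, NKX2-4 and HMX3). In the diencephalon list TCF7L2, a nuclear effector of WNT signalling and a thalamic marker, had 77.3, 80.6 and 85.5 CPM. LHX9 had 46.8, 46.8 and 35.0 CPM. IRX1 had 8.14, 17.0 and 12.9 CPM. These 3 genes were above 8 CPM in each sample, while IRX3, IRX5, LHX1 and OLIG2 never reached 1 CPM and SOX14, BARHL2 and POU4F1 were not detected.

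Midbrain and boundary factors were the best represented of the neural regions by the share above 1 CPM, with 8 of 10 in all samples (80.0%). Of the 10, 5 averaged over 10 CPM, near the background of 6719 among 13855 named genes. PAX2, a paired-box factor of the midbrain-hindbrain boundary and also of the otic and epibranchial territory, had 42.1, 84.2 and 65.1 CPM. OTX2, the homeobox factor of forebrain and midbrain, had 17.5, 22.9 and 16.7 CPM. PAX7, of dorsal midbrain and neural crest, had 12.3, 37.5 and 18.7 CPM. PAX2 and PAX7 were lowest in replicate 1 and highest in replicate 2, and OTX2 varied less, with a CV of 17.7%. EN1, the engrailed factor at the boundary, had 4.35, 10.3 and 5.56 CPM, and PAX5 had 6.28, 8.39 and 5.40 CPM. GBX2, which lies on the hindbrain side of the boundary, had 0.509, 0.172 and 0 CPM and did not pass in any sample.

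Few hindbrain factors were expressed. Of 14 members, 2 passed 1 CPM in all samples (14.3%). The share was 66.7% of all named genes and 46.0% of transcription factor family members. Of the 14, 1 averaged over 10 CPM and 5 were not detected. The summed level of the 14 was 17.6, 39.2 and 25.6 CPM. HOXB1, which marks rhombomere 4, had 1.33, 1.65 and 1.04 CPM. KROX20, the zinc finger gene of rhombomeres 3 and 5, had 0.0565, 0.0215 and 0.130 CPM. HOXB1 was thus just over 1 CPM in each sample and KROX20 was far below it. In the whole HOX family 1 of 37 genes passed and 30 were not detected. HOXA2 had 0.537, 1.87 and 0.469 CPM, and HOXB2 and HOXA3 were above 1 CPM in replicate 1 only.

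**Figure D1:**
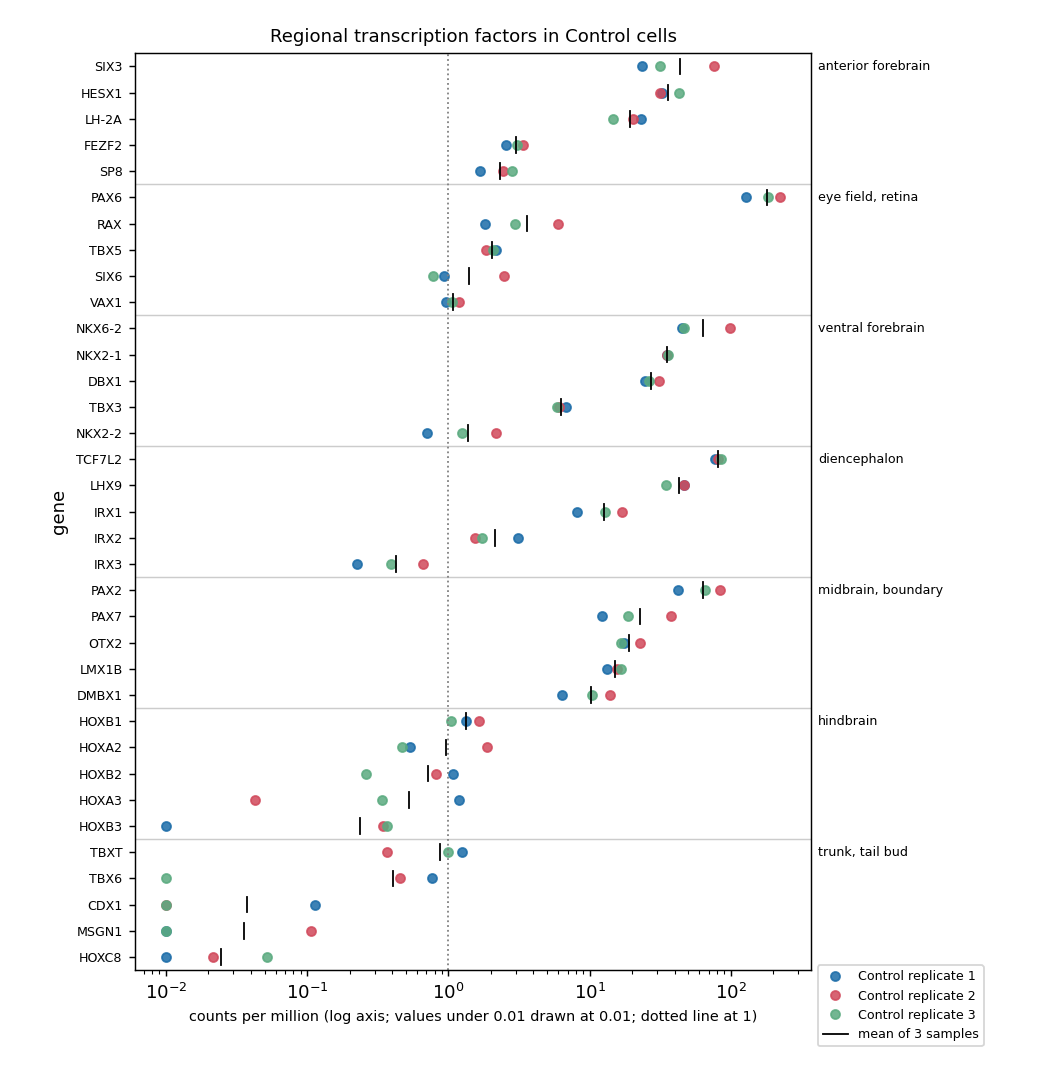
CPM (log axis) of up to 5 leading transcription factors of each regional list (some left out), with 1 row per gene; coloured points are the 3 Control samples and the black tick is their mean. PAX6, PAX2 and TCF7L2 lie right of 40 CPM in every sample, whereas HOX genes and trunk factors lie near or left of the dotted line at 1 CPM.

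Of 14 general neural genes, 10 passed 1 CPM in all samples (71.4%), against the 66.7% of all named genes. HES5, a Notch target of neural progenitors, had 1764, 1524 and 1694 CPM and ranked 46. CDH2, the neural cadherin, had 168, 160 and 147 CPM. FABP7, the brain fatty acid binding protein, had 84.2, 89.8 and 80.7 CPM. These 3 genes had CVs of 7.43%, 6.69% and 5.39%. The median CVs of genes at their levels were 11.9% (1000 CPM or more), 12.3% (100 to 1000 CPM) and 17.2% (10 to 100 CPM). The list was not so even as a whole. Over its 10 members that passed, the median CV was 19.5%, against 18.8% for all genes, and CVs reached 40.8%. The SOXB1 factors that define the neural plate were also measured: SOX3 had 15.1, 21.3 and 19.1 CPM, SOX2 had 2.77, 5.30 and 6.23 CPM, and SOX1 had 0.396, 0.987 and 1.07 CPM. All 3 were lowest in replicate 1. The members that did not pass were SOX1, SOX21 (0.141, 0.687 and 0.417 CPM), ZIC2 (0.170, 0.343 and 0.261 CPM) and POU3F3, with counts in replicate 3 only.

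Of 16 genes of neuron differentiation, 9 passed 1 CPM in all samples (56.3%), against 66.7% of all named genes. The 9 included structural genes and fate factors. TUBB3, the neuronal tubulin, had 141, 216 and 177 CPM, and DCX, a microtubule protein of young neurons, had 131, 88.8 and 126 CPM. ISL1, a LIM factor of sensory and motor neurons and of ventral forebrain, had 39.5, 45.7 and 20.0 CPM. NHLH1, a bHLH factor of newly born neurons, had 13.3, 20.8 and 4.22 CPM. ISL1 and NHLH1 were both lowest in replicate 3. EBF1 and EBF3, factors of differentiating neurons, had 8.85, 11.4 and 11.997 CPM and 6.47, 8.44 and 5.09 CPM. Of the members that did not pass, NEUROG1 and POU4F1 were not detected, and NEUROD1 had counts in replicate 2 only, at 0.494 CPM.

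The 18 surface ectoderm genes with a row were expressed without exception. EPCAM, an epithelial adhesion protein, had 429, 434 and 461 CPM, ranked 382 and had a CV of 3.92%. KRT19, a keratin of simple epithelia, had 159, 226 and 186 CPM. TFAP2B, an AP-2 factor of ectoderm and neural crest, had 135, 161 and 153 CPM. All 3 therefore exceeded 100 CPM in every sample. ESRP2, a splicing factor of epithelial cells, had 101, 55.4 and 94.6 CPM and was lowest in replicate 2. TFAP2A, an AP-2 factor related to TFAP2B, had 12.8, 26.2 and 15.6 CPM and was highest there. KRT18 had 24.7, 57.5 and 25.2 CPM. CDH1, the epithelial cadherin, had 5.14, 11.5 and 8.50 CPM, and TP63, the factor of stratifying epidermis, had 8.23, 16.3 and 13.2 CPM. Of the 18 members, 13 were highest in replicate 2 and 13 were lowest in replicate 1, against 38.2% and 38.9% of all genes that passed 1 CPM.

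Genes of the preplacodal network passed 1 CPM in 7 of 8 cases, against 66.7% of all named genes. EYA2, a phosphatase and transcriptional coactivator, had 41.2, 34.7 and 51.6 CPM. EYA3 had 116, 140 and 109 CPM. DACH1, a corepressor of the same network, had 25.6, 24.6 and 28.1 CPM. The highest sample was at most 1.49 times the lowest in these 3 genes. Over the 7 members that passed, however, CVs ran from 3.96% to 64.3%. SIX4, a homeobox factor of preplacodal ectoderm, had 0.678, 0.902 and 1.59 CPM and was the one member that did not pass.

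Of the 11 genes of the anterior placodes with a row, 6 passed 1 CPM in all samples (54.5%). The share was 66.7% of all named genes and 46.0% of transcription factor family members. PITX1, a homeobox factor of oral ectoderm, had 34.4, 64.1 and 48.8 CPM. DLX5, expressed along the anterior border and in the olfactory placode, had 39.0, 66.0 and 41.5 CPM. Both were lowest in replicate 1 and highest in replicate 2. Factors that come later in these placodes were low, since PROX1 had 0.763, 1.14 and 0.548 CPM, LHX3 had 0, 0.343 and 0.261 CPM, and TBX19 passed 1 CPM in replicates 2 and 3 only.

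Genes of the otic and epibranchial list were expressed in these cells, from which the otic placode had been taken out. Of the 15 with a row, 13 passed 1 CPM in all samples (86.7%), against 66.7% of all named genes. Members such as GATA3, SOX10 and PAX2 are also in other lists, so this share is not specific to otic or epibranchial identity. FOXI3, an epibranchial marker of the study, and FOXI2 and TBX1 had no row. Of those 13, 11 were highest in replicate 2, against 38.2% of all genes that passed. GATA3, a zinc finger factor of otic and other ectoderm, had 99.8, 127 and 103 CPM. SOX10, shared by otic placode and neural crest, had 91.6, 127 and 97.5 CPM. Both averaged over 100 CPM with CVs of 13.3% and 17.8%. SOX8, the SoxE factor that the series overexpresses in its other group, had 21.8, 46.1 and 27.4 CPM, a mean of 31.8 ± 12.7 CPM (SD, n = 3) at rank 4675. ZBTB16, a zinc finger repressor, had 23.8, 41.7 and 29.4 CPM. SOHO-1, a homeobox gene of the sensory organs, had 8.82, 26.3 and 14.97 CPM. LMX1A, a LIM factor of the ear, had 1.27, 2.79 and 1.83 CPM, a mean of 1.96 ± 0.768 CPM. These 4 genes shared 1 order of samples, replicate 2 highest and replicate 1 lowest, as did PAX2, GATA3 and SOX10. The order was common among the transcription factor families counted below, in 38 of the 85 members averaging at least 10 CPM (44.7%). It held for 26.8% of all genes at that level. Between replicates 1 and 3 alone, LMX1A lay at 1.27 and 1.83 CPM, which is 45 and 70 reads. HMX1 had at most 0.209 CPM, and NELL1, with 23.0, 16.9 and 28.7 CPM, was lowest in replicate 2.

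Neural crest and border genes with a row passed 1 CPM in 18 of 18 cases, against 66.7% of all named genes. Of the 18, 13 averaged over 10 CPM. PAX3 and SNAI2 of the list had no row. ZEB2, a zinc finger repressor of delaminating crest, had 65.7, 88.6 and 67.6 CPM. MSX1, a homeobox factor of the neural plate border, had 40.0, 77.8 and 49.7 CPM. SNAI1, of the Snail family, had 63.2, 36.4 and 47.1 CPM and so had the opposite order to MSX1. SOX9 and FOXD3, factors that specify crest cells, were low and uneven: SOX9 had 4.78, 20.1 and 7.62 CPM, and FOXD3 had 1.36, 6.33 and 2.58 CPM. Without replicate 2 they lay between 4.78 and 7.62 CPM and between 1.36 and 2.58 CPM. SOX5 had 41.1, 26.8 and 36.0 CPM, and ETS1, a factor of cranial crest, had 8.99, 7.71 and 4.75 CPM.

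Mesenchymal genes were divided. Of 22 genes of head mesenchyme, 11 passed 1 CPM (50.0%), 5 were not detected and 3 averaged over 10 CPM. Of the 13855 named genes 66.7% passed, 1692 were not detected and 6719 averaged 10 CPM or more, so the list lay below this background. ALX1, a homeobox factor of frontonasal mesenchyme, had 29.8, 27.7 and 20.1 CPM. PDGFRA, the PDGF receptor of crest-derived and mesodermal mesenchyme, had 29.1, 19.3 and 24.2 CPM. COL1A2, a fibrillar collagen, had 14.95, 20.7 and 13.95 CPM. These were the 3 members over 10 CPM. TWIST1 had 3.22, 6.50 and 4.59 CPM and PRRX1 had 1.64, 3.20 and 2.06 CPM. FOXC1, TCF21 and MSC had no counts in any sample (TCF21 and MSC are known from head muscle precursors). Among endoderm genes, SOX17 and GATA6 were not detected, and APOA1, an apolipoprotein gene listed there, had 47.6, 56.6 and 40.8 CPM. Of the notochord and prechordal genes, CHRD, a BMP antagonist, had 6.59, 17.3 and 6.89 CPM, and SHH had 5.23, 7.32 and 5.37 CPM.

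**Figure D2:**
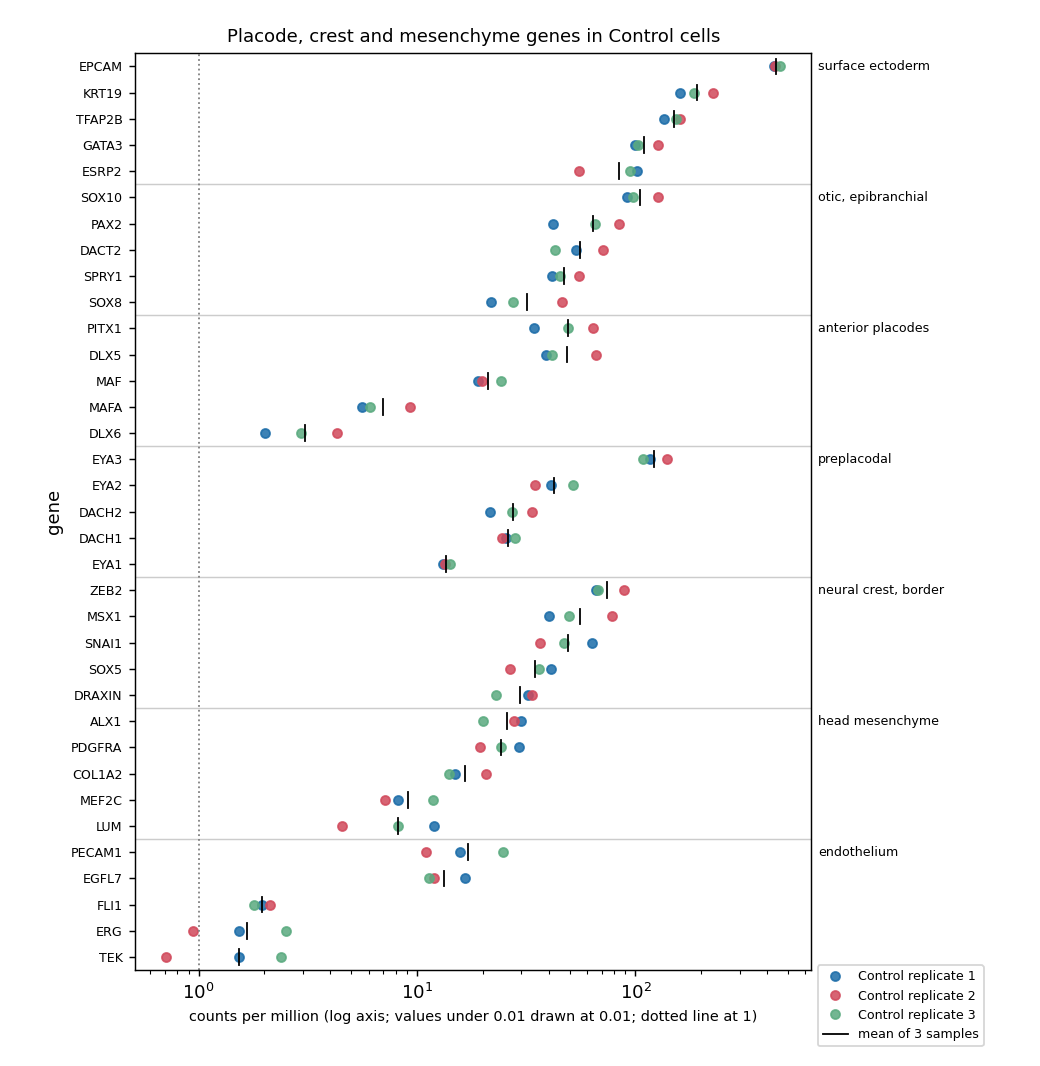
CPM (log axis) of up to 5 leading genes of each placode, ectoderm, crest, mesenchyme and endothelium list (a gene of several lists is drawn once, and some are left out); coloured points are the 3 Control samples and the black tick is their mean. EPCAM, KRT19 and TFAP2B lie over 100 CPM in all samples, and the endothelial genes at the bottom include members near 1 CPM.

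Transcription factor families were then counted whole. The 25 families held 291 genes, of which 134 (46.0%) passed 1 CPM in all samples, against 66.7% of all named genes, and 58 were not detected. They took 0.679%, 0.774% and 0.733% of all counts. Families with every member above 1 CPM were TFAP2 (5 genes), MSX (2), MEIS, PKNOX, PBX and TGIF (8), TEAD (3), ID (4) and SALL (3). At the other end stood POU with 1 of 9, T-box with 3 of 15 (5 without replicate 1) and HOX with 1 of 37. In the POU family the one gene was POU2F1, a broadly expressed factor with 84.9, 96.4 and 99.8 CPM. In the T-box family the leading row was MGA, a MAX partner that carries a T-box, with 55.5, 62.0 and 67.5 CPM.

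Only 14 family members averaged 100 CPM or more. Besides HES5, PAX6, TFAP2B, GATA3 and SOX10 they included ID2 and ID1, inhibitors of bHLH factors, at 692, 717 and 703 CPM and at 295, 544 and 353 CPM. ID2 had a CV of 1.73% and ID1 of 32.7%. GLI2 and GLI3, the hedgehog effectors, had 209, 161 and 231 CPM and 146, 165 and 134 CPM. MEIS1, a HOX and PBX cofactor, had 166, 180 and 197 CPM. SALL1 and SALL4, zinc finger factors of early ectoderm and progenitors, had 174, 133 and 211 CPM and 120, 151 and 134 CPM. The remaining members were TGIF1, with 131, 170 and 157 CPM, and HES4, with 184, 168 and 180 CPM. In the SOX family 9 of 15 genes passed, and in the forkhead family 12 of 26. FOXM1, a factor of dividing cells, had the most reads of the forkhead genes, with 86.4, 56.6 and 86.7 CPM.

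Most uneven transcription factors were highest in replicate 2. Of the 85 family members with a mean of at least 10 CPM, 21 differed by 2-fold or more between samples, and 20 of the 21 were highest in replicate 2, the exception being RORA. Among all 579 genes with such a spread, 64.4% were highest in replicate 2. The 20 factors included PKNOX2 (3.05, 25.7 and 17.5 CPM), SOX9, ETV5, RXRG (10.9, 38.4 and 21.4 CPM), ID3, SIX3, PAX7, MSX2, HES1 and SOX8. They belonged to several regions and cell types and not to a single list. Between replicates 1 and 3 only 2 of the 85 factors differed by 2-fold. Over lists with at least 3 members above 1 CPM, the median member was highest in replicate 2 in 21 of 25. The exceptions were the preplacodal, endothelium, cell cycle and interferon lists. Several lists share members, such as SOX10, GATA3 and PAX2, so the lists are not independent of each other.

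**Figure D3:**
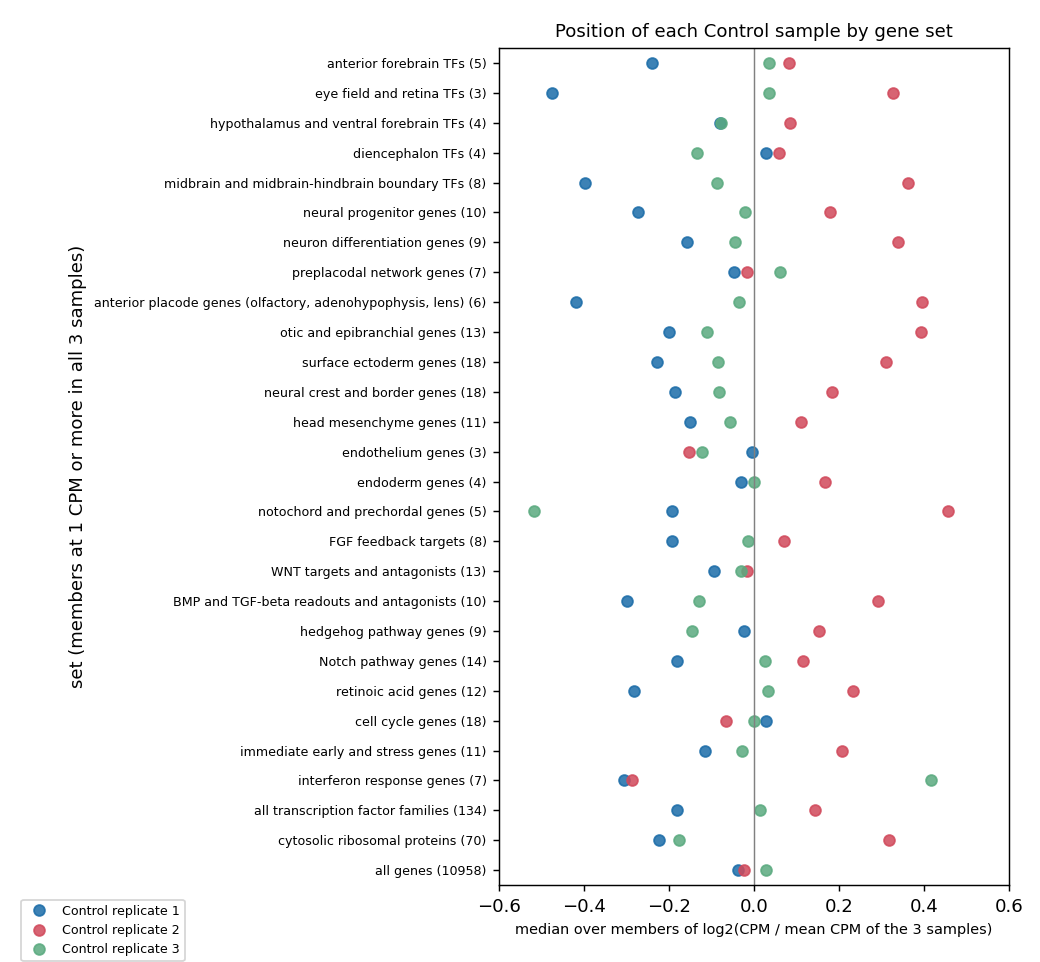
Median over the members of each set of log2(CPM over the mean CPM of the 3 samples), 1 row per set with its number of members above 1 CPM; each coloured point is 1 Control sample. Replicate 2 lies right of the other samples in 21 of the 25 lists drawn and in the ribosomal protein genes, and the 3 samples lie together for all genes.

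**Figure D4:**
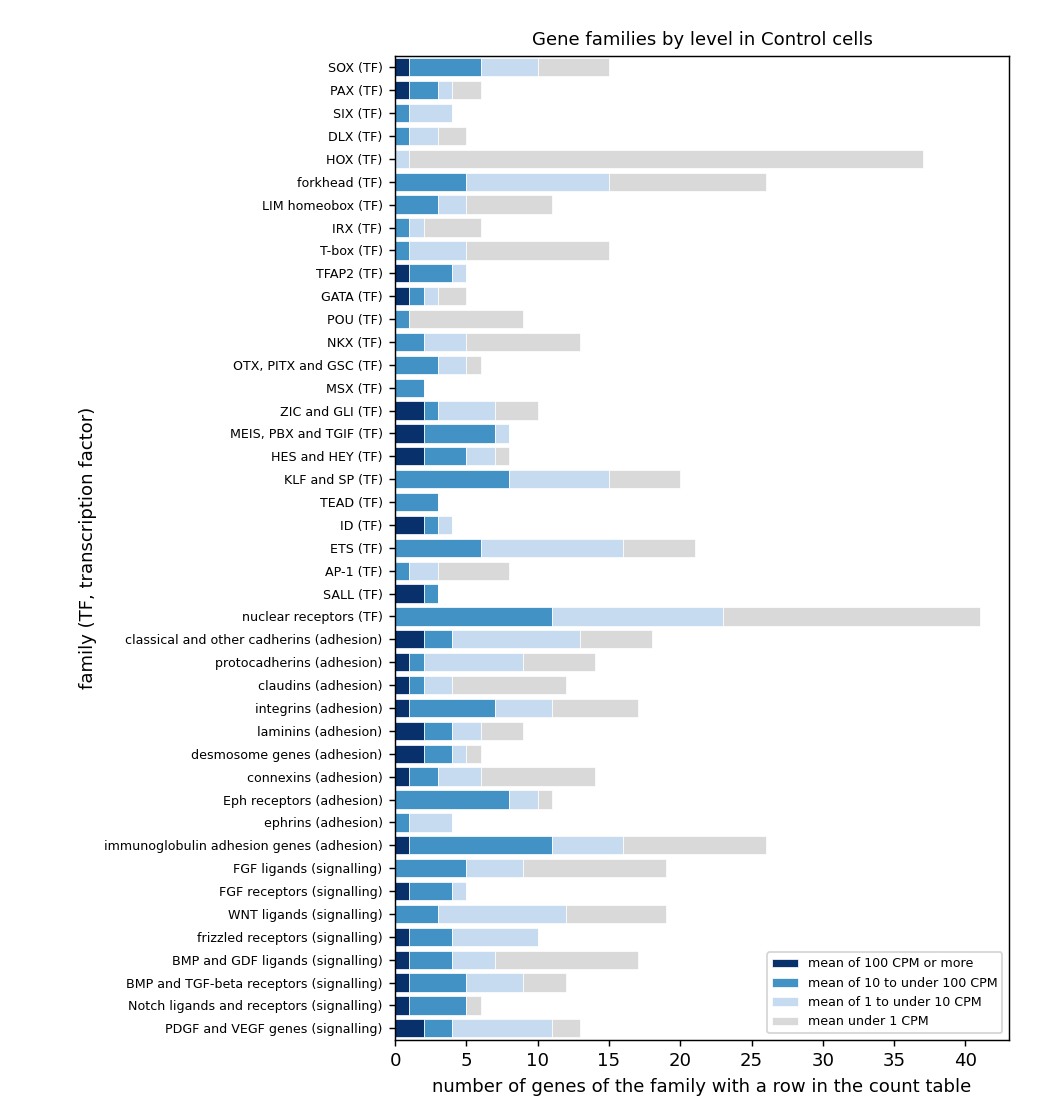
Number of genes of each transcription factor, adhesion and signalling family by mean CPM over the 3 Control samples, as stacked bars starting at 0. Nearly all of the HOX bar lies under 1 CPM, whereas the TFAP2, MSX, SALL, TEAD and ID bars hold no gene under 1 CPM.

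Adhesion genes were the next group. Of 131 members of 10 adhesion families, 74 (56.5%) passed 1 CPM, below the 66.7% of all named genes. Of the 131, 11 averaged over 100 CPM, a smaller share than the 2002 of 13855 named genes. CLDN1, a tight junction claudin, had 732, 795 and 782 CPM and ranked 167. CLDN12 had 115, 68.6 and 113 CPM. No other claudin with a named row reached 5 CPM in a sample, and 3 of 12 passed. CLDN4 and CLDN5 had no row under these names. GJA1, a gap junction connexin, had 211, 217 and 222 CPM, a CV of 2.50%. GJC1 had 74.5, 71.0 and 64.9 CPM and GJB1 had 34.2, 55.1 and 33.3 CPM.

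Of 18 cadherins, 9 passed 1 CPM. Beside CDH2, CDH11, a mesenchymal cadherin, had 139, 97.5 and 112 CPM, and CDH6, of early neural crest, had 24.2, 15.3 and 19.7 CPM. CDH13, a cadherin anchored by a lipid, had 36.4, 22.6 and 37.7 CPM. All 3 were lowest in replicate 2, opposite to CDH1. Desmosomal genes were present, with 5 of 6 above 1 CPM. DSP, which links desmosomes to intermediate filaments, had 51.6, 52.7 and 55.0 CPM. JUP, the catenin of desmosomes, had 76.5, 205 and 96.4 CPM and was 2.68 times higher in replicate 2 than in replicate 1.

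Of 9 laminins 6 passed 1 CPM (66.7%, the same as for all named genes), and of 17 integrins 10 did (58.8%). LAMB1 and LAMA1, chains of basement membrane laminin, had 203, 366 and 238 CPM and 195, 137 and 215 CPM. LAMC1, the third chain of that trimer, had 32.8, 46.2 and 35.8 CPM. LAMA1 was thus lowest in replicate 2 where its partners were highest. ITGB1, the common beta integrin, had 166, 192 and 180 CPM, and ITGA6, a laminin-binding alpha chain, had 46.7, 28.4 and 49.9 CPM. In the immunoglobulin group CADM1 had 165, 202 and 186 CPM and NCAM1 had 77.2, 115 and 83.5 CPM. Eph receptors, which act in cell sorting, passed in 10 of 11 cases, led by EPHB6 with 77.7, 51.1 and 72.4 CPM, and 3 of 4 ephrins passed, led by EFNA5 with 18.6, 13.995 and 18.2 CPM.

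All 5 FGF receptor genes passed 1 CPM, against 8 of 19 FGF ligands. Of the 101 members of the signalling families 62 passed (61.4%), against 66.7% of all named genes. FGFR1 had 72.4, 148 and 93.5 CPM. FGF9 led the ligands with 24.1, 22.2 and 31.2 CPM, while FGF8, the signal of the anterior border and of the midbrain-hindbrain boundary, had 7.32, 12.5 and 4.88 CPM. FGF3 and FGF19, known as inducers of the otic placode, had 1.95, 3.54 and 3.57 CPM and 2.83, 3.20 and 0.991 CPM. Genes that FGF signalling induces passed in 8 of 9 cases. SPRY2, a feedback inhibitor, had 247, 235 and 256 CPM, a CV of 4.38%. ETV5, a transcriptional effector, had 19.1, 79.0 and 32.2 CPM. The 2 readouts therefore differed in spread, and replicate 2 was lowest for SPRY2 and highest for ETV5.

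WNT ligands passed in 9 of 19 cases and frizzled and LRP receptors in 10 of 10. WNT4 had 22.4, 41.9 and 21.0 CPM, WNT2B had 15.1, 22.3 and 28.0 CPM, and WNT1, of the dorsal midbrain, had 5.20, 7.04 and 6.29 CPM. FZD3 led the receptors with 223, 189 and 193 CPM. CTNNB1, the beta-catenin gene, had 256, 246 and 244 CPM, and the secreted antagonist SFRP2 had 192, 233 and 195 CPM. AXIN2, a common readout of the pathway, was low at 2.85, 3.48 and 4.41 CPM. Of 14 targets and antagonists 13 passed, and the one that did not was SP5.

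BMP4, the main BMP ligand of non-neural ectoderm, had 100, 162 and 137 CPM, and BMP2 had 31.0, 42.2 and 33.1 CPM. ACVR2B, a type II receptor, had 601, 672 and 601 CPM and ranked 241. FST, follistatin, which binds activins and BMPs, had 129, 114 and 111 CPM, and NOG, noggin, had 2.15, 3.91 and 3.49 CPM. Together with ID1 and ID2, which BMP signalling induces, ligand, receptor, antagonist and readout genes were all present. Of 17 BMP and GDF ligands 7 passed 1 CPM, against 9 of 12 BMP and TGF-beta receptors and 10 of 12 readouts and antagonists.

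In the hedgehog pathway 9 of 14 genes passed 1 CPM (64.3%), near the 66.7% of all named genes. Beside GLI2 and GLI3, BOC, a coreceptor, had 19.4, 43.0 and 25.2 CPM. PTCH1, receptor and target, had 19.8, 13.2 and 13.7 CPM. GLI1, a target, had 0.594, 4.12 and 2.11 CPM. The ligands IHH and DHH were not detected. In the Notch pathway 14 of 16 genes passed. NOTCH1 had 93.3, 124 and 118 CPM, NOTCH2 had 65.2, 60.0 and 84.0 CPM, and the ligands JAG2 and DLL1 had 29.9, 44.6 and 38.7 CPM and 20.6, 31.4 and 23.1 CPM. DLL4, a ligand of vessels, did not pass in replicates 1 and 2.

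Retinoic acid genes included synthesis, binding and breakdown. ALDH1A3, a synthesising enzyme of the anterior head, had 82.5, 92.3 and 102 CPM, whereas ALDH1A2, the enzyme of trunk mesoderm, had 2.71, 4.85 and 4.98 CPM. CRABP-I, a cellular binding protein, had 110, 118 and 120 CPM. STRA6, the retinol transporter, had 61.5, 102 and 63.4 CPM. The degrading enzymes CYP26C1 and CYP26A1 had 5.31, 11.6 and 7.93 CPM and 1.55, 6.03 and 7.62 CPM, and CYP26B1 stayed under 1 CPM. RARB was the one RAR gene that passed 1 CPM, at 55.3, 32.1 and 44.5 CPM, while RARA and RARG had at most 0.258 CPM.

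**Figure D5:**
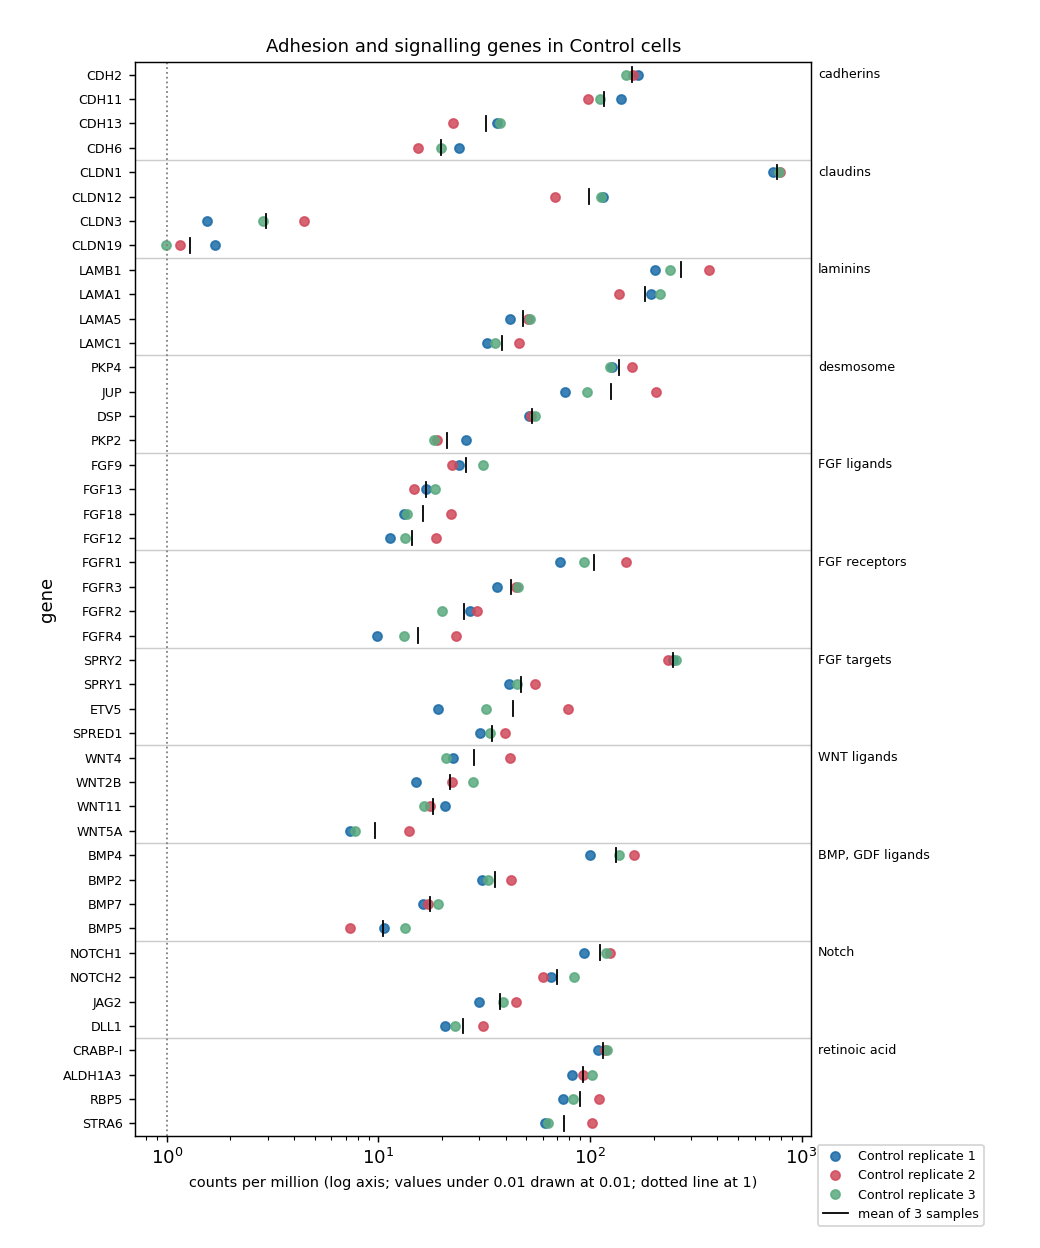
CPM (log axis) of up to 4 leading genes of 11 adhesion and signalling sets in the 3 Control samples (coloured points) with their mean (black tick). CLDN1 lies over 700 CPM in every sample and the FGF and WNT ligands lie mostly between 7 and 42 CPM.

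Cell cycle genes were expressed at high rank, with 18 of 19 above 1 CPM and 13 averaging over 100 CPM. CDK1, the mitotic kinase, had 1052, 929 and 992 CPM. PCNA, the replication clamp, had 778, 684 and 762 CPM. CCND1, the G1 cyclin, had 520, 453 and 485 CPM. The 3 genes were lowest in replicate 2, with CVs of 6.21%, 6.77% and 6.83%, and MCM3, a helicase subunit, went the other way with 36.5, 84.0 and 49.7 CPM. Genes of the immediate early response, often raised by handling and dissociation, were also read. FOS had 3.25, 9.90 and 4.46 CPM, EGR1 had 1.87, 8.74 and 8.92 CPM, and JUN had 36.3, 45.2 and 32.1 CPM. Their part in the other levels was not tested.

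The most variable genes were listed last. By the ratio of highest to lowest CPM among named genes averaging at least 10 CPM, the first 10 were PKNOX2, N4BP3, POMGNT1, KIF18B, NHLH1, FAAH2, PALD1, ABCA2, APAF1 and MMP15. PKNOX2, a TALE homeobox gene, reached a ratio of 8.40. N4BP3 had 3.11, 19.7 and 7.98 CPM, and PALD1 had 20.8, 97.8 and 34.7 CPM. APAF1, the apoptosis adaptor, had 34.5, 7.47 and 16.5 CPM and was the one of these 10 with its highest value in replicate 1. The other 9 were highest in replicate 2, NHLH1 included. Over all genes kept by the expression filter the common biological coefficient of variation, the spread between samples beyond counting, was 0.293, and it was 0.235 without replicate 2.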

How the data were processed

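RNA sequencing of 6 samples was deposited by the authors as 1 table of raw read counts per gene, and the 3 Control columns were used. The methods of the study give alignment to galGal6 with STAR in an nf-core pipeline, and the labels name Trim Galore and featureCounts. Libraries were made from few sorted cells (4000 per sample by the labels; the methods give another number) by amplification without molecular identifiers and read as pairs of 75 bases, so counting errors are lower limits. The strand setting, the annotation release and what was done with reads that fit several genes are not given in the sources used here, which leaves overlapping genes, antisense genes and near-identical copies uncertain. The methods call the samples biological replicates.

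CPM was computed over all 24356 genes, 10501 of them without a name, with numpy 2.4.6 and pandas 2.3.3. The biological coefficient of variation came from edgeR 4.0.16 in R 4.3.3 after filterByExpr, and its script was tested on simulated data. No groups were compared. Samples were compared by the chi-square value given above, without a p-value, and no other test was run. Lists (29, with 440 entries) and families (44, by name pattern) were matched by name, and 7 entries by synonym through a RefSeq table of assembly GRCg7b. No row was found for 45 entries, which are not analysed here, and proteins named for binding an integrin were left out of the integrins. Values in each sample are given for the leading members of a list, the otic genes and the most variable genes, and other members given with values were picked after these had been seen. Members and lists were chosen with earlier results of these data known. Alternatives were TMM, DESeq2 1.42.0 size factors, totals without the 20 leading genes, other cuts, and leaving out each sample. Some genes of the lists are not reported here by name.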

Additional observations from a re-analysis of the deposited data

How the results depend on the processing

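Counts of members above 1 CPM in all samples mostly stayed within 1.5 times under the alternatives. With at least 10 counts in all samples as the cut, the anterior forebrain list had 11 members, eye field 7, hypothalamus 9, hindbrain 4, trunk 1, endothelium 8, notochord 8, the family of SIX3 and SIX4 4, HOX 3, T-box 8, claudins 5, connexins 9 and FGF ligands 14. At 0.5 CPM, eye field had 6, hypothalamus 7, endothelium 7 and the family of SIX3 and SIX4 4. At 2 CPM, eye field had 1, hindbrain 1, head mesenchyme 7, blood 1, notochord 3, HOX 0 and IRX 1. With a mean of 1 CPM, eye field had 6, hypothalamus 7, endothelium 8, the family of SIX3 and SIX4 4 and T-box 5. DESeq2 size factors gave hindbrain 1 and HOX 0. These cuts keep more or fewer genes by construction. Leaving out each sample in turn gave 3 to 5 endothelium genes, the 5 without Control replicate 2, and 3 to 5 T-box genes, the 5 without Control replicate 1. The common biological coefficient of variation was 0.474 over all genes with a count, and 0.235 to 0.342 when 1 sample was left out. TMM scaling and totals without the 20 leading genes moved none of these counts by over 1.5 times. When only genes averaging 10 CPM or more were kept, 14 results on counts and CVs moved and 61 did not. CPM per kilobase of coding length was not run, since no lengths were used here. With 3 samples, an SD is itself uncertain, and the depth puts 3 counts at 0.0644 to 0.0848 CPM, below which a gene cannot be told from an absent one.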

Other observations

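Interferon response genes passed 1 CPM in 7 of 13 cases (53.8%), against 66.7% of all named genes. EIF2AK2, a kinase activated by double-stranded RNA, had 5.74, 4.68 and 10.9 CPM in Control replicates 1, 2 and 3. MX1, an antiviral GTPase, had 0.622, 1.24 and 1.75 CPM.

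Genes named for the W chromosome, which only female birds carry, were read in each pool. Wpkci-7 had 1257, 1466 and 1378 CPM, and SPIN1W had 8.14, 7.04 and 9.57 CPM. Both have relatives elsewhere in the genome, so their counts are uncertain.

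Among growth factors of mesenchyme and vessels, VEGFD had 164, 114 and 165 CPM and PDGFA had 92.5, 100 and 115 CPM, while VEGFA had 2.37, 1.63 and 1.70 CPM. Of the 13 PDGF and VEGF genes 9 passed 1 CPM in all samples.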
